A study of Homo sapiens with 6 samples.

Results

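The 10 genes described here encode WNT ligands (WNT4, WNT5A and WNT5B), frizzled receptors (FZD1, FZD2, FZD6 and FZD7), the co-receptor LRP6 and the secreted Dickkopf proteins DKK1 and DKK3. They were taken by symbol from the 16279 genes of the expression tables, and all 10 were present. 12Z cells are an established line of human endometriotic epithelium. RNA was sequenced from 12Z cells without treatment (NC, n = 3) and from 12Z cells given rhChemerin, the recombinant active form of the adipokine chemerin, at 10 ng/mL for 48 h (n = 3). Only this 1 line, dose and time were sampled, and the labels call the libraries of a group biological replicates without saying whether they came from separate cultures, so p-values measure the spread between these libraries.

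WNT proteins are lipid-modified ligands that bind frizzled receptors at the cell surface. Together with LRP5 or LRP6, frizzled receptors halt the destruction complex that degrades beta-catenin, so that beta-catenin enters the nucleus and acts with TCF/LEF factors, whereas other WNT signals run through planar cell polarity (PCP) proteins or receptors such as ROR2 without beta-catenin. DKK1 binds LRP5/6 and keeps them from the ligand. In the uterus, WNT4 is known for its part in Müllerian duct development and in decidualization, and WNT5A for patterning of the uterine epithelium and glands.

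Each library held from 35430881 to 38341643 reads counted on genes. TMM factors, which correct for library composition, were 1.04 to 1.05 in NC and 1.00, 0.973 and 0.898 in rhChemerin replicates 1 to 3, so that rhChemerin-3 stood apart from the rest. Of the epithelial markers, all 11 were in the table and 6 had a mean above 1 FPKM (fragments per kilobase of gene, scaled to a common library size). Their summed level was 1599 to 1869 FPKM in NC and 1762 to 1978 FPKM in rhChemerin and came mostly from keratins such as KRT8, while CDH1 (E-cadherin) read only 0.238 to 0.381 FPKM in NC and 0.0859 to 0.201 FPKM in rhChemerin, and EPCAM 0.387 to 0.807 and 0.125 to 0.277 FPKM. MUC1 read 10.2 to 14.4 FPKM in NC and 6.79 to 9.85 FPKM in rhChemerin. Of the 10 epithelial markers tested, 5 had an unadjusted edgeR p under 0.05, against 22.8% of all genes. Their median log2 fold change was -0.39, so that the sums and the median differ in direction. All 10 stromal fibroblast markers were above 1 FPKM, with sums of 1787 to 2279 FPKM in NC and 1244 to 2471 FPKM in rhChemerin, and COL1A1 had the highest mean of them (1003 FPKM). Endothelial sums were 1.61 to 2.06 and 0.991 to 1.42 FPKM, and PECAM1, TEK, EMCN, CLDN5 and ERG were under 0.1 FPKM. Immune sums were 122.0 to 172.1 and 93.1 to 136.5 FPKM, from CD68 and CD14, with PTPRC and ITGAM near 0. The part of these markers in the results was not tested, and in such bulk RNA fewer cells of a kind and less RNA per cell cannot be told apart.

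In outline, WNT4 was the member with a clear difference. Its mRNA was 2.40-fold lower in rhChemerin than in NC (95% confidence interval of the ratio 0.312 to 0.556), and every rhChemerin library lay below every NC library. The frizzled members, LRP6, DKK1 and DKK3 had log2 fold changes between -0.25 and 0.29 whose intervals included 0. WNT5B had a positive estimate of 1.38, with libraries far apart within each group, and whether it passed depended on the fit, as given below. By the quasi-likelihood test of edgeR with Benjamini-Hochberg adjustment over 13311 genes, 0 of the 10 members passed an adjusted p of 0.05, against 4 of all genes tested (0.0301%), and 1 member, WNT4, had an unadjusted p under 0.05, against 22.8% of all genes. By DESeq2, the tool used in the study, 1 of 10 members (WNT4) passed, against 10.6% of all genes. WNT4 was also the 1 member past both an adjusted p of 0.05 and an absolute log2 fold change of 1 in DESeq2, as were 2.75% of all genes. The median log2 fold change of the members was -0.13, beside 0.01 for all genes tested.

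**Figure D1:**
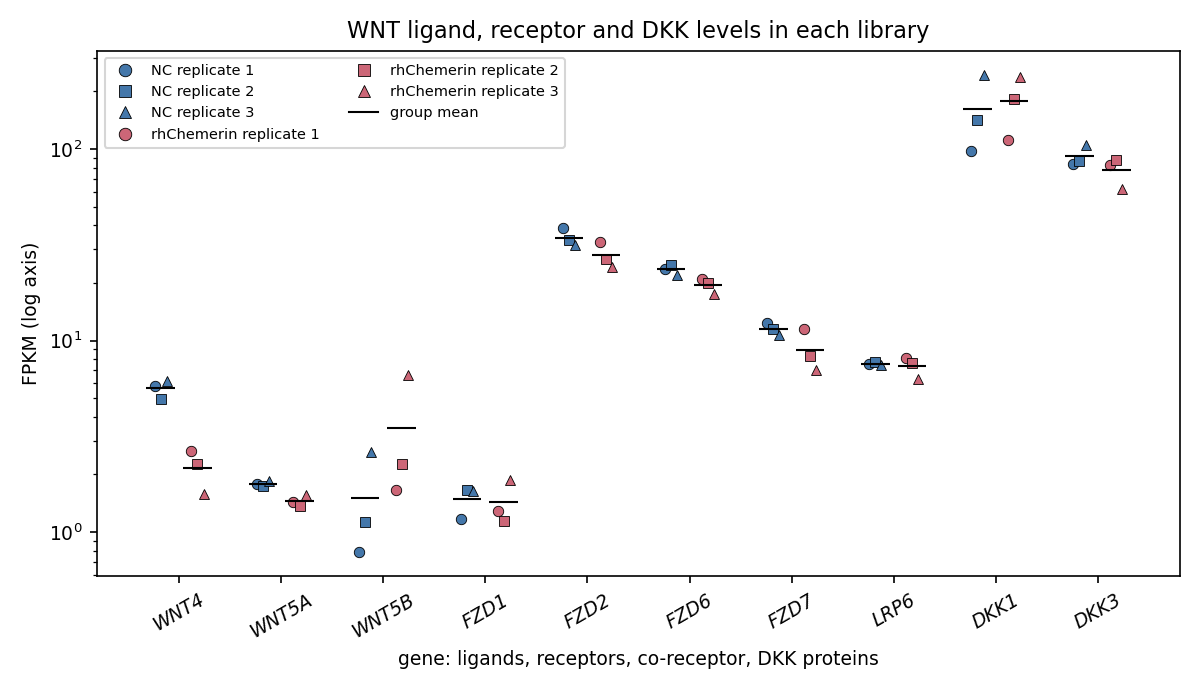
Level of each of the 10 genes in each library, in FPKM on a log axis, with 1 symbol for each replicate and a line for the group mean. WNT4 read 4.94 to 6.17 FPKM in NC and 1.58 to 2.64 FPKM in rhChemerin, and on this scale the DKK genes stood above the receptors and ligands.

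The members differed widely in abundance, on the FPKM scale, which is per length. In NC the order of means was DKK1 (161.4 FPKM), DKK3 (91.5), FZD2 (34.5), FZD6 (23.5), FZD7 (11.5), LRP6 (7.58), WNT4 (5.63), WNT5A (1.78), WNT5B (1.51) and FZD1 (1.49). The ranges of DKK1 and DKK3 overlapped in NC, and the range of WNT5B overlapped those of WNT5A and FZD1, while each of the other neighbours in this order was apart in all 3 libraries. By mean FPKM over the 6 libraries, DKK1 ranked 247 and DKK3 677 of the 13311 genes tested, whereas WNT4 ranked 8620 and WNT5A 10365. In rhChemerin, WNT4 averaged 2.16 FPKM and stood below WNT5B (3.50 FPKM), with ranges that overlapped, and FZD7 (8.95 FPKM) overlapped LRP6 (7.35 FPKM). This order depends on the gene lengths behind the FPKM, which were 14721 bases for WNT5A, 3779 for FZD2 and 3323 for DKK3, against 7397, 2112 and 5059 exon bases in GENCODE release 29. For the other members the deposited length was 0.818 to 1.19 times the GENCODE length. With GENCODE lengths, FZD2 (mean 61.7, range 56.2 to 68.8 FPKM in NC) and DKK3 (mean 60.1, range 54.9 to 68.7) overlapped, and WNT5A averaged 3.55 FPKM in NC. Comparisons of 1 gene between groups do not depend on its length.

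For the members on which the results turn, the RefSeq promoter on GRCh38.p14 is shown from 250 bases before to 50 bases after the annotated start, 5′ to 3′ on the strand of the gene. RefSeq windows were found for 5 of the 10 members (WNT4, WNT5A, WNT5B, FZD1 and DKK1). WNT4 is shown because it differed most clearly (chr1:22143048-22143347, minus strand), WNT5B because it had the highest positive estimate (chr12:1616806-1617105, plus strand), and DKK1 because it was the most abundant (chr10:52314031-52314330, plus strand). Capitals mark matches to the TCF/LEF core CTTTGA or TCAAAG, the GC box GGGCGG or CCGCCC, and the TATA box TATAAA or TTTATA, and matches of a motif may overlap.
WNT4 promoter: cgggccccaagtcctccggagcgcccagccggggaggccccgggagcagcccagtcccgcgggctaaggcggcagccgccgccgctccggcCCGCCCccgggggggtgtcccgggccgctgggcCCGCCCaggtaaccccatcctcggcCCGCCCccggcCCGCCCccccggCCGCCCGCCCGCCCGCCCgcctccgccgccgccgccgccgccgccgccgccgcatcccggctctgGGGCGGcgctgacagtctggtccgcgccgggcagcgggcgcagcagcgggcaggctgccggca
WNT5B promoter: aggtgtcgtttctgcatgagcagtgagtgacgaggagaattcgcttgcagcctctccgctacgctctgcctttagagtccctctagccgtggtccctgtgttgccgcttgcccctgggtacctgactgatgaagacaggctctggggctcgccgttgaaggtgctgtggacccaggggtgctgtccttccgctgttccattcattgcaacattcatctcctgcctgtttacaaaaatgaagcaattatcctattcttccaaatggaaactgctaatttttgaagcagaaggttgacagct
DKK1 promoter: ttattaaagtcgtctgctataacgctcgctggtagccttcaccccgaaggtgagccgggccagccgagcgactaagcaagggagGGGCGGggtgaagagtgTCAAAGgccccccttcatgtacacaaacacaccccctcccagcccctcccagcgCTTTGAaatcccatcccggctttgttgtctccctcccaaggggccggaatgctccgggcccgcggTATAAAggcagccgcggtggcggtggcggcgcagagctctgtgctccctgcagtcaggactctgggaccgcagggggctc
The WNT4 window was 85.7% G and C and held 9 GC boxes, some overlapping, with no TCF/LEF core and no TATA box. The WNT5B window was 51.7% G and C and held none of the 3 motifs. It lies inside the GENCODE span of the gene (1529891 to 1647243, plus strand), far downstream of the first base of that span. The WNT4 window also lies inside the span of its gene. No other start of these genes was examined, so the matches, or their absence, hold for the shown windows only. The DKK1 window held TCF/LEF cores at -149 and -95, a GC box at -166 and a TATA box at -30, counted from the annotated start. Among 27305 RefSeq promoters of this length, 13.1% held a TCF/LEF core, 44.6% a GC box and 12.0% a TATA box, and among the 10716 of tested genes these shares were 8.67%, 70.3% and 5.65%. A match is a description of the letters and not a bound site.

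The ligands are described first. WNT4 lies on chromosome 1 (22117305 to 22143969, minus strand, GENCODE release 29 on GRCh38). Its reads numbered 992, 877 and 1075 in NC and 489, 398 and 285 in rhChemerin, or 5.79, 4.94 and 6.17 FPKM (5.63 ± 0.632, SD, n = 3) against 2.64, 2.27 and 1.58 FPKM (2.16 ± 0.539, SD, n = 3). The highest rhChemerin library was thus well under the lowest NC library, and rhChemerin-3 was the lowest of all. With edgeR the log2 fold change was -1.26 ± 0.18 (SE), with an adjusted p of 0.0692, rank 27 of 13311 genes by p. DESeq2 gave -1.27 with an adjusted p of 1.156e-07. The study had picked out WNT4 on these same libraries, so its direction here is no independent evidence. The study also measured WNT4 by qPCR and reports a change in the same direction as in its sequencing data. When each library was left out in turn, the estimate lay between -1.40 and -1.12, and the adjusted p ran from 0.0248 to 0.359 with edgeR and from 6.894e-10 to 0.0002212 with DESeq2. Without rhChemerin-1 (0.0266) and without rhChemerin-3 (0.0248) the edgeR adjusted p was under 0.05. Only 55 of the 4527 exon bases of WNT4 (1.21%) are shared with a gene on the other strand, AL445253.1, and the strand setting of the counting is not given in the sources used here.

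WNT5A, a ligand best known for signalling without beta-catenin, lies on chromosome 3 (55465715 to 55490539, minus strand). It read 1.78, 1.73 and 1.84 FPKM in NC and 1.43, 1.37 and 1.55 FPKM in rhChemerin. On this scale, which divides by the total only, all rhChemerin libraries were below all NC libraries. After TMM scaling, the counts per common library size (CPM) were 25.2, 24.2 and 25.9 in NC and 21.1, 20.8 and 25.5 in rhChemerin, and rhChemerin-3 lay within the NC range. Its log2 fold change was -0.16 ± 0.12 (SE) with an edgeR adjusted p of 0.421.

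WNT5B, the close relative of WNT5A, lies on chromosome 12 (1529891 to 1647243, plus strand). It had the lowest counts of the members in each NC library, with 108, 161 and 366 reads in NC and 247, 317 and 955 in rhChemerin. The corresponding levels were 0.786, 1.13 and 2.62 FPKM against 1.66, 2.25 and 6.59 FPKM. NC-3 was above 2 of the 3 rhChemerin libraries, and rhChemerin-3 was far above the rest. The log2 fold change of 1.38 ± 0.65 (SE) had a 95% confidence interval of -0.14 to 2.90 and an edgeR adjusted p of 0.251. Without rhChemerin-3 it was 0.46 and without NC-3 it was 2.04. By DESeq2 the adjusted p was 0.276 with all libraries and 0.0276 without NC-3. Each rhChemerin library was above the NC library of the same number, although the labels do not say that the numbers pair the samples. With the replicate number as a block, edgeR gave 1.27 ± 0.18 (SE; adjusted p 0.0581). DESeq2 with this block, added after the data were seen, gave 1.27 with an adjusted p of 3.948e-06.

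Set against all WNT ligand genes, the mixture of ligand mRNA differed between libraries. The summed FPKM of the 16 ligand genes in the table was 26.6, 23.7 and 24.1 in NC and 18.2, 12.5 and 14.3 in rhChemerin. WNT4 made up 22.8% ± 2.53 of it in NC and 14.6% ± 3.51 in rhChemerin (SD, n = 3). WNT5B made up 6.21% ± 4.15 and 24.4% ± 19.4, and reached 46.2% in rhChemerin-3. WNT2B made up 25.7% ± 7.53 and 11.9% ± 11.0, and only 1.41% in rhChemerin-3. These shares are per length and are not independent of one another, since they sum to the whole.

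**Figure D2:**
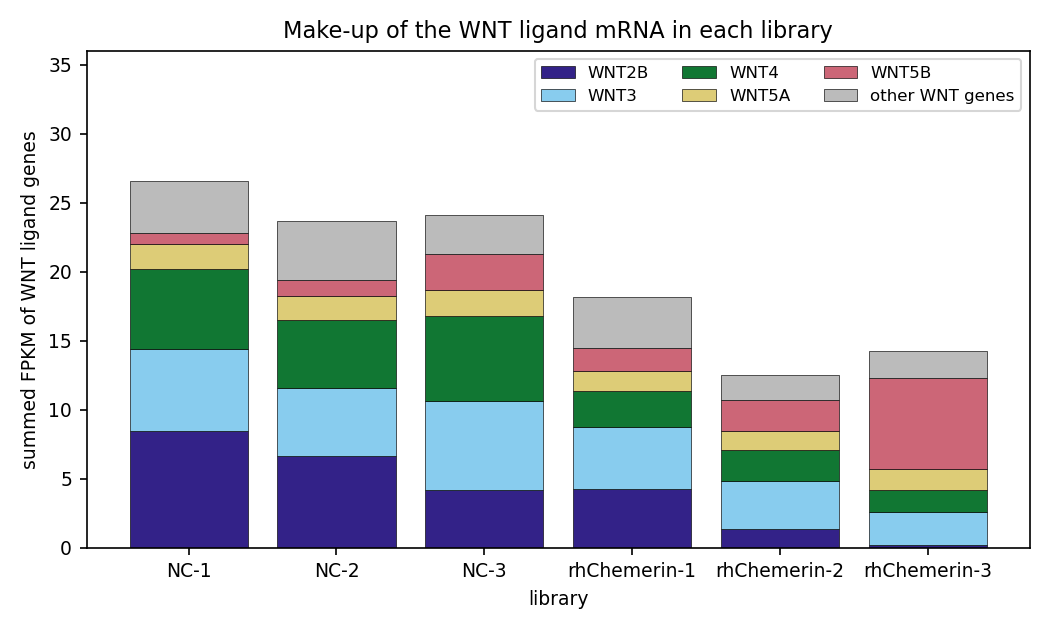
Summed FPKM of the WNT ligand genes in each library, stacked by gene. The NC bars reach 23.7 to 26.6 FPKM and the rhChemerin bars 12.5 to 18.2 FPKM, and WNT5B takes 46.2% of the rhChemerin-3 bar.

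Among the other ligands, WNT3 read 5.99, 4.92 and 6.47 FPKM in NC and 4.51, 3.43 and 2.41 FPKM in rhChemerin. Its groups did not overlap, and its log2 fold change was -0.63 (edgeR adjusted p 0.153, DESeq2 0.0575). WNT2B, one of the 3 ligand genes with the highest mean FPKM, read 8.44, 6.65 and 4.16 FPKM in NC and 4.24, 1.39 and 0.201 FPKM in rhChemerin, with a log2 fold change of -1.64 that did not pass (edgeR adjusted p 0.280). In all, 16 of 19 listed ligand genes were in the table and 10 passed the filter on low counts. Of those 10, DESeq2 called WNT4 only (10%, against 10.6% of all genes), and the median log2 fold change was -0.34. WNT8B, WNT9B and WNT16 were not analysed here.

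Of the frizzled members, FZD2, FZD6 and FZD7 stood above the ligands in level, and none of the 4 passed in edgeR or DESeq2 with all libraries. FZD2, known as a receptor for WNT5A, lies on chromosome 17 (44557459 to 44559570, plus strand). It read 38.5, 33.5 and 31.4 FPKM in NC and 32.6, 26.8 and 24.2 FPKM in rhChemerin, so that rhChemerin-1 lay within the NC range. FZD2 had a log2 fold change of -0.18 ± 0.12 (SE; 95% confidence interval -0.45 to 0.09, edgeR adjusted p 0.369). FZD6, on chromosome 8, is known for its part in planar polarity. It read 23.8, 24.7 and 22.1 FPKM in NC and 21.0, 19.9 and 17.6 FPKM in rhChemerin. Its groups did not overlap, also after TMM scaling, where NC held 77.8 to 86.3 and rhChemerin 72.1 to 77.7 CPM, but the gap between the groups was small against their spread. FZD6 had a log2 fold change of -0.14 ± 0.08 (SE) with an edgeR adjusted p of 0.329. Of the exon bases of FZD6, 138 of 4065 (3.39%) are shared with BAALC-AS1 on the other strand.

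FZD7, a receptor known from beta-catenin signalling in stem cells, lies on chromosome 2 (202034587 to 202038445, plus strand). It read 12.4, 11.5 and 10.7 FPKM in NC and 11.6, 8.26 and 7.04 FPKM in rhChemerin. Only rhChemerin-1 lay among the NC libraries. FZD7 had a log2 fold change of -0.25 ± 0.16 (SE; edgeR adjusted p 0.376, DESeq2 0.394), and without rhChemerin-1 it was -0.44, with adjusted p of 0.0649 and 0.0122. FZD1, a close relative of FZD2 and FZD7 on chromosome 7 (91264364 to 91271326, plus strand), read 1.17, 1.65 and 1.65 FPKM in NC and 1.28, 1.15 and 1.87 FPKM in rhChemerin, and its groups overlapped fully. Its log2 fold change of 0.09 ± 0.26 (SE; edgeR adjusted p 0.850) turned to -0.05 with scaling by library size only, which also moved the median of all genes from 0.01 to -0.12. It was -0.21 without rhChemerin-3. FZD1 and FZD2 transcripts share 7 sequences of 75 bases (0.102% and 0.343% of all such sequences in each). These were taken at every position, so they may overlap. No other member shares such a sequence with another gene.

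Over the family, summed frizzled mRNA was 71.3 to 82.0 FPKM in NC and 60.1 to 71.3 FPKM in rhChemerin. FZD2 held 44.8% ± 1.92 of it in NC and 43.3% ± 2.77 in rhChemerin, FZD6 30.6% ± 1.49 and 30.5% ± 1.89, and FZD7 15.0% ± 0.147 and 13.8% ± 2.26 (SD, n = 3). The order of these 3 receptors was thus the same in the 2 groups, and the ranges of the sums touched. All 9 frizzled genes in the table were tested and DESeq2 called 0 of them, against 10.6% of all genes. edgeR called 0 and gave 1 (FZD5, named after its values were seen) an unadjusted p under 0.05, against 22.8% of all genes. FZD8, also chosen after its values were seen, read 6.85 FPKM in rhChemerin-3 and 1.31 to 2.21 FPKM elsewhere. FZD10 was not analysed here.

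The co-receptor LRP6, which with frizzled relays the signal to beta-catenin, lies on chromosome 12 (12116025 to 12267012, minus strand). It read 7.57, 7.75 and 7.43 FPKM in NC and 8.15, 7.63 and 6.27 FPKM in rhChemerin, so that rhChemerin libraries lay on both sides of NC. The log2 fold change was 0.08 ± 0.09 (SE; 95% confidence interval -0.13 to 0.29, edgeR adjusted p 0.609), and -0.05 with scaling by library size only. Among the other co-receptors and alternative receptors, PTK7 (log2 fold change -0.22), RYK (-0.07) and ROR2 (-0.04) were the most abundant and did not pass, with edgeR adjusted p from 0.342 to 0.817. After TMM scaling, all 6 genes of this list had overlapping groups, and their median was -0.05.

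DKK1, the secreted LRP5/6 antagonist that is itself a known target of beta-catenin, lies on chromosome 10 (52314296 to 52318042, plus strand). It was the most abundant member and the one whose libraries spread most in absolute level, at 98.1, 141.6 and 244.6 FPKM in NC and 111.8, 182.5 and 237.7 FPKM in rhChemerin. The groups overlapped over nearly their whole range. The log2 fold change was 0.29 ± 0.39 (SE; 95% confidence interval -0.63 to 1.20, edgeR adjusted p 0.678). It was 0.72 without NC-3 and -0.05 without rhChemerin-3, so that its size and sign changed with the library left out. With the replicate number as a block, it was 0.30 ± 0.10 (SE; edgeR adjusted p 0.141, DESeq2 0.0996). Of the DKK1 exon bases, 212 of 2206 (9.61%) lie opposite PRKG1-AS1.

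DKK3, the most divergent Dickkopf protein, lies on chromosome 11 (11963106 to 12009769, minus strand). It read 83.6, 86.4 and 104.6 FPKM in NC and 82.7, 87.9 and 62.0 FPKM in rhChemerin. rhChemerin-3 was the lowest and NC-3 the highest, and the other libraries lay together. The log2 fold change was -0.12 ± 0.13 (SE; edgeR adjusted p 0.616), and it was -0.02 without rhChemerin-3 and -0.01 without NC-3. KREMEN2, a receptor that takes up LRP6 together with DKK1, read 6.92, 6.78 and 5.83 FPKM in NC and 3.94, 2.91 and 1.47 FPKM in rhChemerin, with no overlap. Its log2 fold change was -1.12 (edgeR adjusted p 0.119, DESeq2 0.00833), and the DESeq2 call held in 3 of 6 fits that leave out 1 library, being lost without NC-1, NC-2 or rhChemerin-2. Its relative KREMEN1 had a log2 fold change of 0.03 (edgeR adjusted p 0.914). DKK4 was not analysed here.

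**Figure D3:**
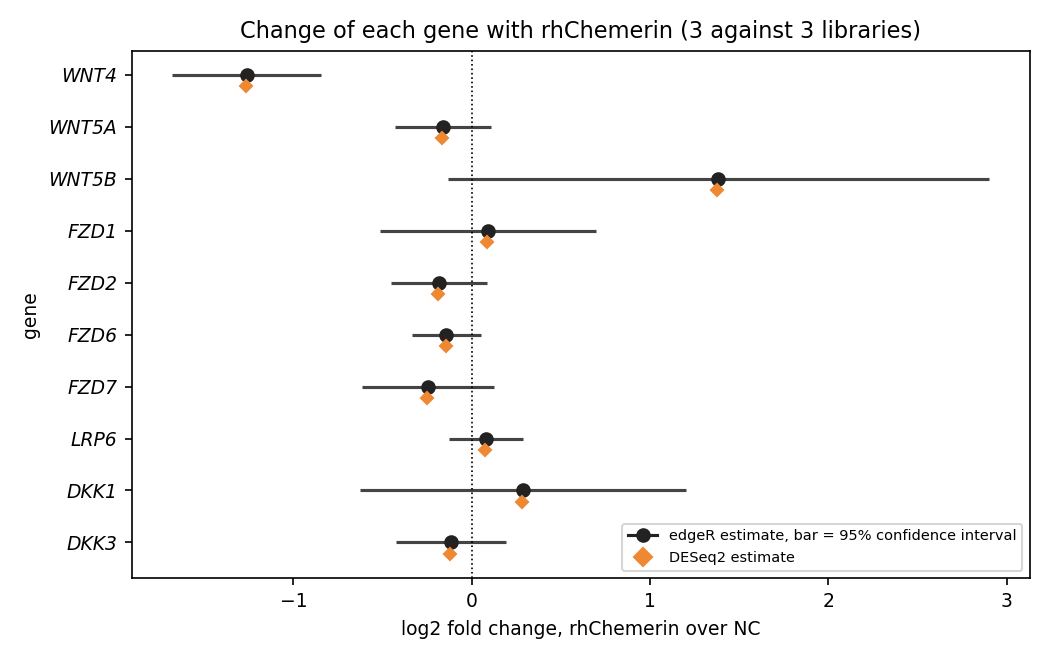
Log2 fold change of each gene, rhChemerin over NC, with circles for edgeR estimates, bars for their 95% confidence intervals and diamonds for DESeq2 estimates. The bar of WNT4 (-1.68 to -0.85) excludes 0, and the bars of the other 9 genes include it.

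Groups that do not overlap were common in these data, at 32.5% of all genes after TMM scaling (16.0% with all rhChemerin libraries lower and 16.5% with all higher). Of the members, 2 of 10 (WNT4 and FZD6) were all lower, 0 were all higher and 8 overlapped. A count of 2 in 10 is near that background. Groups of 3 and 3 that do not overlap give p = 0.10 in a two-sided exact permutation test, which is the smallest p this design allows.

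**Figure D4:**
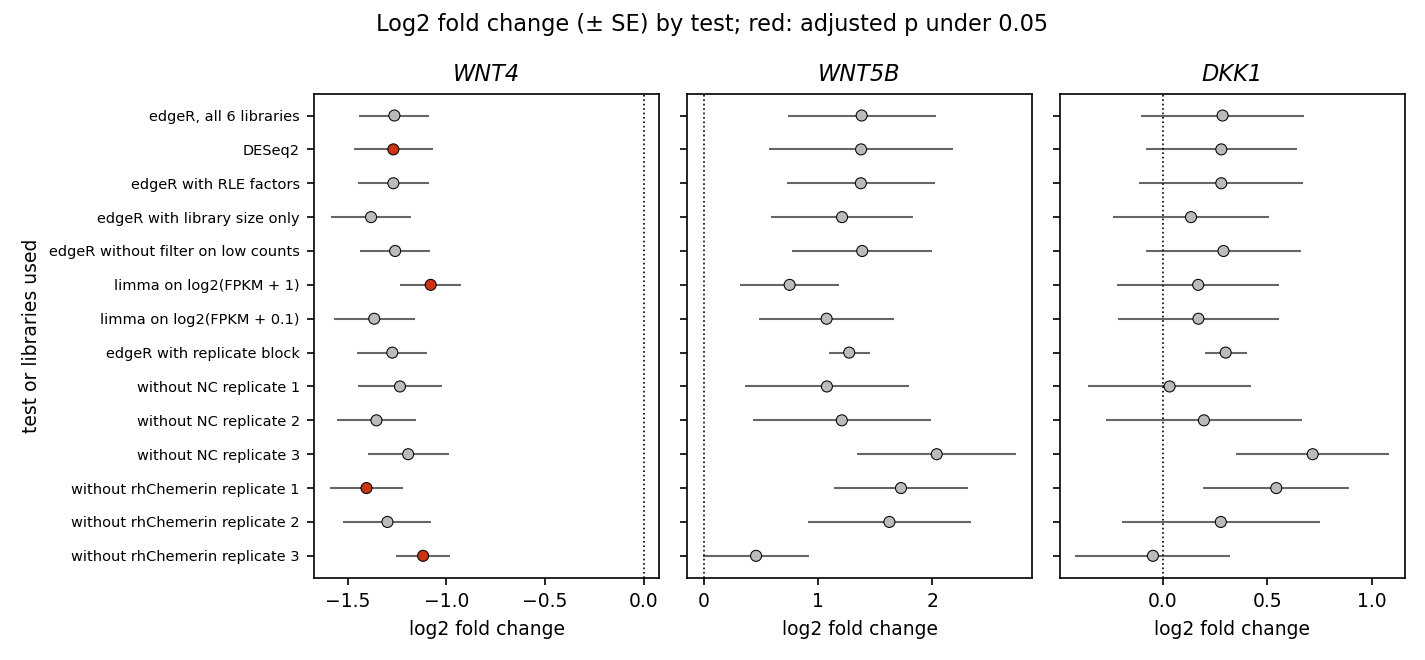
Log2 fold change (± SE) of WNT4, WNT5B and DKK1 under each test and with each library left out, with red points where the adjusted p was under 0.05. WNT4 stays between -1.40 and -1.08 under the edgeR and limma settings, whereas WNT5B moves from 0.46 to 2.04.

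The remaining WNT pathway genes came from 11 lists of 106 genes in all, members included. Of the 96 that are not members, 87 were in the table and 68 were tested. edgeR called 0 of the 68 and gave 21 an unadjusted p under 0.05, a larger share than the 22.8% (3038 of 13311) of all genes. DESeq2 called 9 (13.2%, against 10.6% of all genes), and of these CTNNB1 was higher and the other genes were lower in rhChemerin, beside 798 lower and 609 higher calls among all genes. The groups of 17 did not overlap with all rhChemerin libraries lower, and those of 6 with all higher. Among all genes these were 2131 (16.0%) and 2201 (16.5%), so that lower outnumbered higher only among the pathway genes. Both kinds together made up 33.8%, near the 32.5% of all genes. The median log2 fold change was -0.13.

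Of the other secreted antagonists, NOTUM, the enzyme that inactivates WNT by removing its lipid and a known feedback target of beta-catenin, read 2.93, 3.44 and 3.99 FPKM in NC and 0.727, 0.645 and 0.842 FPKM in rhChemerin. The groups were far apart and each was tight. Its log2 fold change was -2.09 ± 0.24 (SE; edgeR adjusted p 0.0574, DESeq2 2.491e-12), and the DESeq2 call held in all 6 fits that leave out 1 library. FRZB, a decoy that binds WNT, was lower in every rhChemerin library and did not pass (log2 fold change -1.19, edgeR adjusted p 0.146, DESeq2 0.0585). SFRP1, the most abundant decoy, read 29.1, 29.4 and 56.7 FPKM in NC and 32.7, 90.0 and 119.5 FPKM in rhChemerin, with overlapping groups and a log2 fold change of 1.23 (edgeR adjusted p 0.201).

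The planar cell polarity list held most of the other genes that DESeq2 called. Of its 13 tested genes, DESeq2 called 5, all lower in rhChemerin (38.5%, against 10.6% of all genes called in either direction), 7 had all rhChemerin libraries below NC (against 16.0% of all genes), and the median log2 fold change was -0.46. CELSR3, a cadherin that links neighbouring cells in this pathway, read 2.69, 3.32 and 3.75 FPKM in NC and 1.56, 1.29 and 0.793 FPKM in rhChemerin. Its log2 fold change was -1.31 ± 0.22 (SE; edgeR adjusted p 0.0707, DESeq2 7.413e-06), and its DESeq2 call held in 6 of 6 fits that leave out 1 library. The others were PRICKLE1 (-1.06), CELSR2 (-0.75), VANGL2 (-0.59) and PRICKLE3 (-0.46), with DESeq2 adjusted p from 0.01239 to 0.03103, and each of them lost its call in 3 to 5 of those 6 fits, including those without NC-1, without NC-2 and without NC-3. SCRIB (0.05) and CELSR1 (-0.06), abundant genes of the same list, had overlapping groups.

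Inside the cell, CTNNB1, which encodes beta-catenin, read 60.5, 63.3 and 57.4 FPKM in NC and 68.8, 67.3 and 60.2 FPKM in rhChemerin. Its groups did not overlap after TMM scaling, and the log2 fold change was 0.24 ± 0.08 (SE; edgeR adjusted p 0.140, DESeq2 0.0379). The DESeq2 call held in 1 of 6 fits that leave out 1 library, the one without rhChemerin-3. In the list of dishevelled and destruction complex genes, APC (0.31) and GSK3A (0.34) were higher in every rhChemerin library and APC2 (-1.31, at most 35 reads) lower. After TMM scaling, 4 of its 14 genes were lower and 3 higher in every rhChemerin library (50% together, against 32.5% of all genes). DESeq2 called 0 of the 14, against 10.6% of all genes. The textbook targets of beta-catenin did not go 1 way. BAMBI, a decoy receptor, was lower (-0.52, DESeq2 adjusted p 0.0451, edgeR 0.138, and called by DESeq2 in 2 of 6 fits that leave out 1 library, those without rhChemerin-1 and without rhChemerin-3), AXIN2, the usual feedback gene, was lower in every rhChemerin library without passing (-0.80, edgeR adjusted p 0.201), and MYC, whose groups overlapped in FPKM, was higher in every rhChemerin library after TMM scaling without passing (0.63, edgeR adjusted p 0.178). Of 10 tested targets, DESeq2 called 2 (NOTUM and BAMBI; 20%, against 10.6% of all genes), and the median was -0.27. For ligand secretion, WLS (0.14) and PORCN (0.03) had overlapping groups, as did LGR4 (-0.34) and ZNRF3 (-0.02) of the R-spondin module, where DESeq2 called 0 of 3.

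**Figure D5:**
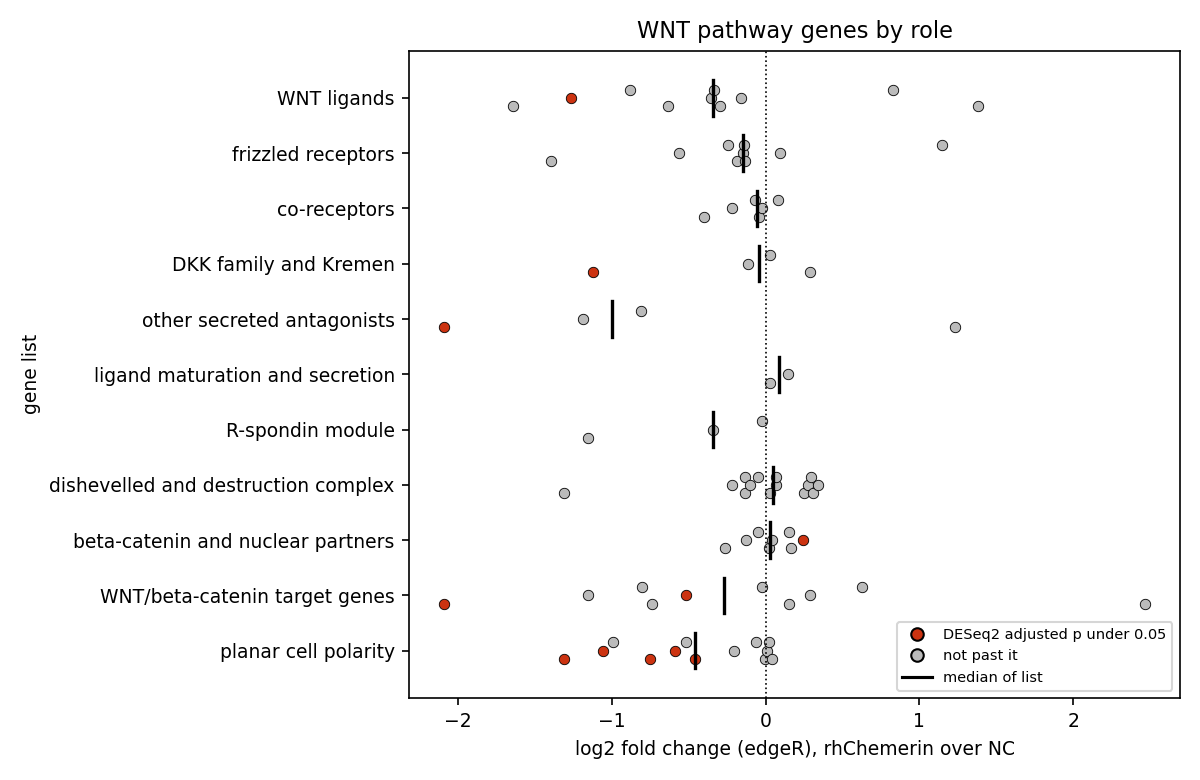
Log2 fold change (edgeR) of each tested WNT pathway gene by list, with red points where the DESeq2 adjusted p was under 0.05, grey points for the rest and a black line for the median of the list. The planar cell polarity list has 5 red points and a median of -0.46.

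The genes whose pattern was most like that of WNT4 over the 6 libraries were FAM171A2, NR2F6 and SLC46A1, with Pearson correlations of log2 CPM of 0.998, 0.997 and 0.996. They are the 3 highest of all tested genes, and the 6 points share the NC and rhChemerin split and its library composition, so the values are a description only. Their log2 fold changes were -0.48, -0.29 and -0.85, smaller in size than that of WNT4.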

How the data were processed

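RNA-seq libraries of 12Z cells (3 NC, 3 rhChemerin) were analysed. The authors used fastp for trimming, HISAT2 for alignment to GRCh38.p13 and HTSeq for counting, and they deposited raw counts and FPKM of the same 16279 genes. In 13028 genes with enough reads, the deposited FPKM equalled the count over a fixed length and the library total within 1%. Fixed lengths and the lack of composition scaling limit comparison of FPKM between libraries, so tests used the counts.

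Counts were tested in R 4.3.3 with edgeR 4.0.16 (TMM, filterByExpr, quasi-likelihood test, Benjamini-Hochberg over 13311 genes). Alternatives were DESeq2 1.42.0 (2 genes had no adjusted p), limma 3.58.1 on log2(FPKM + 1) or log2(FPKM + 0.1), other scaling, no filter, a block on the replicate number, and fits without each library in turn. DESeq2 with the block or without 1 library was added after the data were seen. The scripts for these tests were tested on simulated data.

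The members and gene lists were chosen with earlier results of these data known. All members were named, and from each list the genes past an adjusted p of 0.05 in edgeR or past both thresholds in DESeq2, up to 3 more with the smallest p among genes whose groups did not overlap, and up to 3 with the highest mean FPKM. Positions came from GENCODE release 29 and promoters from RefSeq. In the smallest library (35430881 reads), 1 read is 0.0282 CPM.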

Additional observations from a re-analysis of the deposited data

How the results depend on the processing

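Of 130 combinations of a member and an alternative to the edgeR fit, 117 kept the direction and the side of the threshold, 4 (all WNT4) passed a threshold that was missed before, and 9 changed sign (FZD1, LRP6 and DKK1). WNT4 passed with DESeq2 (-1.27, adjusted p 1.156e-07), with limma on log2(FPKM + 1) (-1.08, 0.0474) and without rhChemerin-1 or rhChemerin-3. FZD1 was -0.054 with library size only, -0.037 with limma on log2(FPKM + 1) and -0.063 with limma on log2(FPKM + 0.1). With 1 library left out it ran from -0.21 (without rhChemerin-3) to 0.23, or from -0.21 to 0.24 with DESeq2, and was also negative without NC-1. LRP6 was -0.046 with library size only and -0.047 and -0.054 with these limma settings. DKK1 ran from -0.046 (without rhChemerin-3) to 0.72 (without NC-3), or from -0.045 to 0.71 with DESeq2. The median of all genes moved to -0.12 with library size only.

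edgeR called 4 of all genes, against 1407 with DESeq2, 17 without the filter, 179 and 23 with limma at pseudocounts of 1 and 0.1, and 0 to 844 with 1 library left out (844 without rhChemerin-1, 415 without rhChemerin-3, 0 in the other fits). It called 0 members, against 1 with DESeq2, 1 with limma on log2(FPKM + 1) and 0 to 1 with 1 library left out. It called 0 other pathway genes, against 9 with DESeq2, 1 without the filter, 1 with either limma setting and 0 to 9 with 1 library left out (9 without rhChemerin-1, 3 without rhChemerin-3). With 1 library left out, DESeq2 called 309 to 2687 of all genes (309 without NC-2, 2687 without rhChemerin-1), 1 to 2 members and 2 to 22 other pathway genes (2 without NC-1 or NC-2, 22 without rhChemerin-1). The second member was WNT5B without NC-3 and FZD7 without rhChemerin-1. The cause of these differences was not tested.

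With the replicate number as a block, edgeR called 1 gene in all and 0 members, and DESeq2 called 1510 genes, 12 other pathway genes and 2 members, WNT5B being the second (1.27, adjusted p 3.948e-06). Whether the same numbers pair the samples cannot be settled with 3 libraries a group. Deviations from the group mean correlated at 0.241, 0.00147 and 0.247 between same-numbered libraries. Those of other pairs correlated at -0.306 to 0.106, and NC-2 correlated best with rhChemerin-1. With 3 libraries a group, the main edgeR fit cannot exclude differences within the interval of each member, and the smallest detectable difference was not computed.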
